A study of Bos grunniens with 3 samples.

Results

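The nuclear-encoded genes of the mitochondrial respiratory chain were described in yak skin across the hair cycle. They were chosen by symbol alone, as the rows of the gene list whose symbol began with NDUF, with COX and a digit, with UQCR or with ATP5, or was SDHA, SDHB, SDHC or SDHD. The rule found 53 genes among 26924 rows, of which 15765 carried a symbol. Complex I had 27 of these genes, complex II 2, complex III 4, complex IV 13 and complex V 7. By role, 38 were named for subunits, 14 for assembly factors and 1, ATP5IF1, for a regulator. The same rule finds 101 genes in the RefSeq gene table of assembly Bosgru_T2T1.0, and 52 of them had a row here. The other 49, among them SDHA, SDHD, COX4I1, COX5A, COX5B, UQCRB and UQCRH, were not analysed here, so each sum below covers only part of its complex.

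Hair follicles pass through a growth phase (anagen), a regression phase (catagen) and a resting phase (telogen), and 1 single-cell library of scapular skin was deposited from each. The paper covers the anagen and catagen libraries, so the telogen library is described from its labels alone. By the labels the animals were Tianzhu white yaks (Bos grunniens), healthy and about 2 years old, with no genetic change or treatment, and the sources do not say which animal gave which library. Skin strips were treated with dispase, hair follicles were pulled out, and cells were freed from the shafts with trypsin, so the libraries are of follicle-enriched skin. The protocol text of the library labelled catagen names anagen skin, while its title, description and stage label give catagen, which was used here.

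The respiratory chain sits in the inner mitochondrial membrane. Complex I oxidizes NADH and complex II oxidizes succinate, both pass electrons to ubiquinone, complex III passes them on to cytochrome c, and complex IV hands them to oxygen. Protons pumped on the way drive the ATP synthase, complex V. Most subunits are nuclear-encoded, and a few core subunits come from the mitochondrial genome. Hair follicle cells are known to make lactate from glucose as well as to respire.

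Counts were unique molecular identifiers (UMIs), each standing for 1 captured RNA molecule, and a level is the number of UMIs of a gene per 1000000 UMIs of the library or cell class (CPM). The matrices held 12000 anagen, 12124 catagen and 14573 telogen cells with 82862998, 51647865 and 103511775 UMIs and a median of 5251.5, 3339.5 and 5561 UMIs per cell. Keeping cells with at least 200 detected genes left 11987, 12062 and 14502 cells. The lowest UMI total of a cell was 2404 in anagen and 500 in each of the other libraries, and 40 to 49 cell barcodes were shared by any pair of libraries. The keratinocyte keratin KRT14 stood at 10596 to 20273 CPM and the leukocyte gene PTPRC at 0.290 to 0.502 CPM, while the collagen gene COL1A2 was at 30.3 CPM in anagen, 0.252 in catagen and 2.61 in telogen, so epithelial markers stood far above those of other tissues. With 1 library per stage, no test of a stage was possible. Stage, library and the Cell Ranger version in the file headers (4.0.0, 3.1.0 and 6.0.2) cannot be told apart, and all intervals are exact 95% intervals for counting error only.

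Across whole libraries the respiratory chain genes were highest in telogen and lowest in catagen. Their summed level was 5365 CPM in anagen, 4177 CPM in catagen and 6648 CPM in telogen, or 0.537%, 0.418% and 0.665% of all UMIs. The log2 ratio of the sums was -0.36 for catagen over anagen (-0.37 to -0.35), 0.31 for telogen over anagen (0.30 to 0.31) and 0.67 for telogen over catagen (0.66 to 0.68). Of the 36 members that reached 20 CPM in a library, 27 ran telogen over anagen over catagen and 3 telogen over catagen over anagen. Scaling by median-of-ratios size factors in place of library totals moved every catagen over anagen value by about -0.25 and every telogen over anagen value by about 0.25 on the log2 scale, and the log2 ratios of the sums then stood at -0.61, 0.56 and 1.17. The median over all genes compared then moved from -0.01 to -0.30, from -0.17 to 0.10 and from -0.20 to 0.38. This scaling shifts every gene of a comparison by the same amount. The place of the members relative to all genes was therefore all but fixed and is no check on the scaling.

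The cytosolic ribosomal protein genes had the same order. Their share of UMIs was 14.5% in anagen, 12.7% in catagen and 16.7% in telogen, and the part of this overall shift in the respiratory chain values was not tested. With these genes taken out of the totals, the log2 ratios of the respiratory chain sums were -0.39, 0.35 and 0.74.

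**Figure D1:**
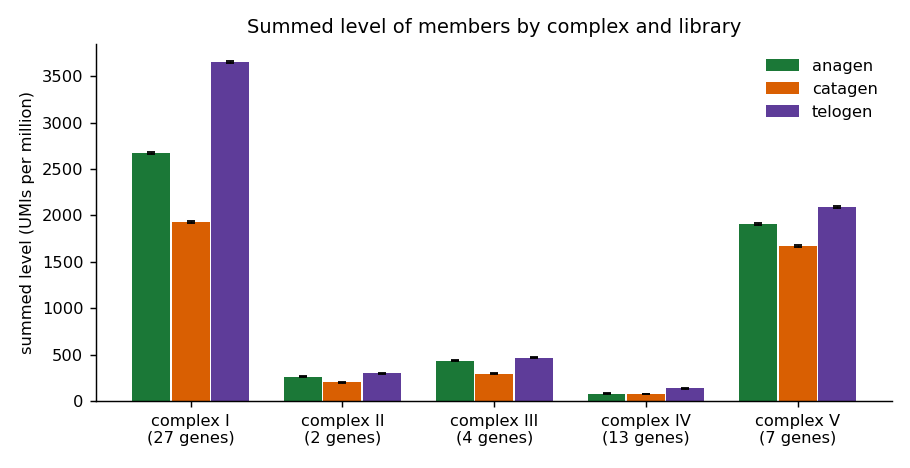
Summed level of the respiratory chain genes of each complex (vertical axis, CPM, from 0) in the anagen, catagen and telogen libraries (bars), with exact 95% intervals for counting error. Each complex was lowest in catagen and highest in telogen, and complexes I and V held most of the UMIs.

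Each complex had its lowest sum in catagen and its highest in telogen, and they differed in size. The complex I sum was 2669 CPM in anagen, 1926 in catagen and 3650 in telogen, a log2 ratio of -0.47 for catagen over anagen and 0.92 for telogen over catagen. The complex V sum was 1909, 1671 and 2089 CPM, with log2 ratios of -0.19 and 0.32. Complex II (266, 204 and 300.6 CPM) and complex III (438, 298 and 470 CPM) lay between them in telogen over catagen, at 0.56 and 0.65. The complex IV genes with a row here summed to only 83.4, 78.8 and 139 CPM and had the largest log2 ratio of telogen over anagen, 0.74 (0.70 to 0.78).

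Counted gene by gene, catagen was below anagen for most members. A gene was called when it reached 20 CPM in either library and differed by at least 1.5-fold. Between catagen and anagen, 8 of 33 members were lower, against 13.7% of all 4261 genes compared in the same way, and 1 was higher, against 13.1%. The median log2 ratio was -0.35 over the members and -0.01 over all genes. Between telogen and anagen, 9 of 36 members were higher, against a background of 8.79%, and 0 were lower, against 22%, with medians of 0.47 and -0.17. Between telogen and catagen, 25 of 36 members were higher, against 15.6%, and 0 were lower, against 29.2%, with medians of 0.85 and -0.20. The comparisons share libraries and so are not independent of each other. Under median-of-ratios scaling 18 of 32 members were lower in catagen over anagen, against 28.8% of all genes compared, and 1 was higher, against 5.2%. Under that scaling 22 of 37 members were higher in telogen over anagen, against 19.3% of all genes, and 32 of 37 in telogen over catagen, against 38.5%. The share of calls over all genes that were higher went from 49.0% to 15.3%, from 28.5% to 62.1% and from 34.9% to 83.1%.

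**Figure D2:**
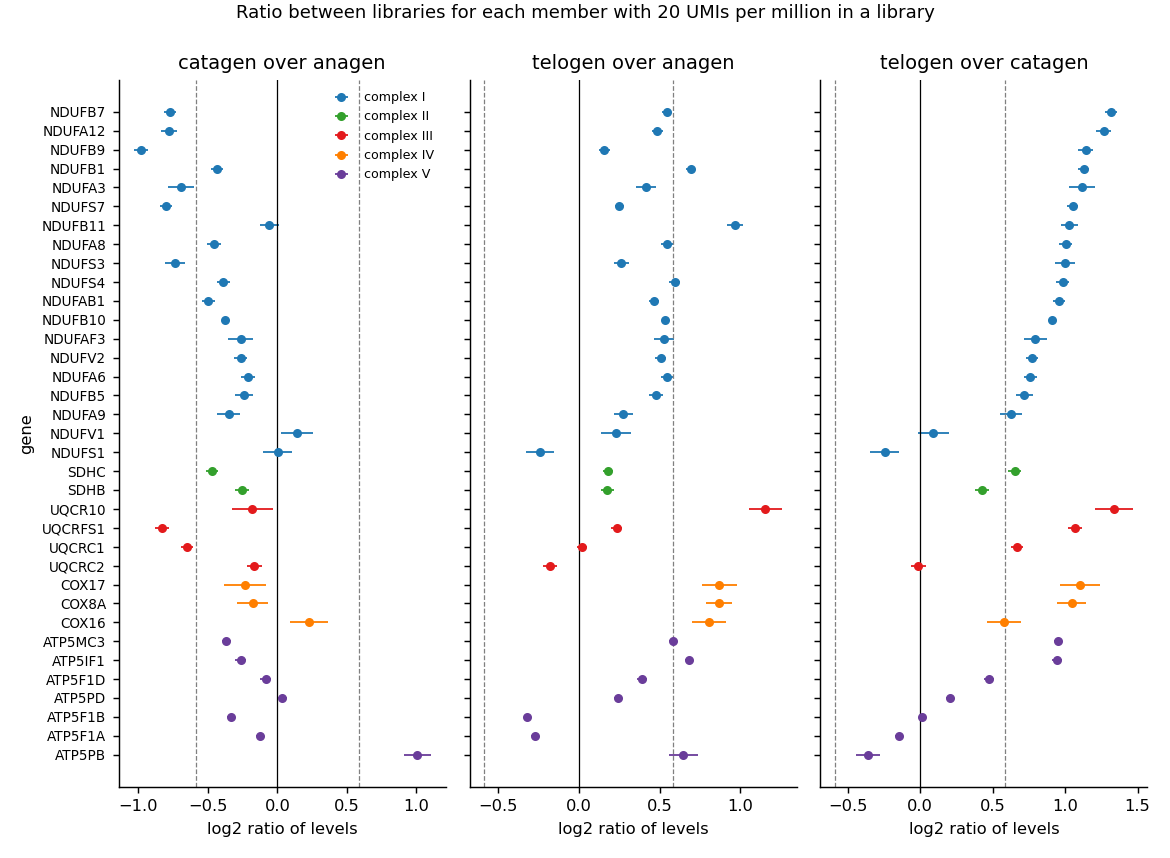
Log2 ratio of levels between libraries (horizontal axes) for 35 members with at least 20 CPM in a library, ordered by complex (colours), with exact 95% counting intervals as bars and dashed lines at 1.5-fold, with UQCR10, COX16 and COX17 under 20 CPM in anagen and catagen. By library totals 28 of the 32 drawn members compared lie below 0 in catagen over anagen and ATP5PB alone lies past 1.5-fold above it, and in telogen over catagen 25 of 35 lie past 1.5-fold above 0. ATP5PB was under 20 CPM in anagen.

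In complex I, the subunit NDUFB10 was the most abundant member in anagen and telogen, with 583 CPM in anagen, 449 in catagen and 844 in telogen. The NADH dehydrogenase subunit NDUFB9 had the lowest log2 ratio of catagen over anagen, -0.98 (-1.04 to -0.93), from 149 CPM in anagen to 75.4 in catagen, with 166 CPM in telogen. NDUFS7, which carries an iron-sulphur cluster in the arm that leads to ubiquinone, stood at 217, 125 and 259 CPM, and NDUFA12, a subunit of the matrix arm, at 125, 72.6 and 175 CPM. Both were therefore lower in catagen than in either other library by at least 1.5-fold.

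The accessory subunits of complex I, which surround the catalytic core, stood further apart between telogen and the other libraries than the core subunits did. This split was made after the values had been seen. The 15 accessory subunits, NDUFA4L2 counted among them by its symbol, summed to 1986 CPM in anagen, 1442 in catagen and 2865 in telogen. All 13 of them that were compared were at least 1.5-fold higher in telogen than in catagen, against 15.6% of all genes. The 6 core subunits with a row summed to 617, 427 and 700.2 CPM, and 3 of 6 were. The core subunits NDUFS1 and NDUFV1, which did not pass the fold, stood near 20 CPM. The accessory subunits NDUFA10 and NDUFA4L2 were below 20 CPM in every library and so were not compared. Their log2 ratios of telogen over catagen were -0.15 (-0.28 to -0.03) and 0.34 (-0.09 to 0.78). NDUFA10 thus went the other way by library totals, and turned to 0.35 under median-of-ratios scaling. In telogen over anagen the log2 ratio was 0.53 (0.52 to 0.54) for the accessory sum and 0.18 (0.17 to 0.20) for the core sum.

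NDUFB7, an accessory subunit of the membrane arm, had 193 CPM in anagen, 113 in catagen and 281 in telogen, and its log2 ratio of telogen over catagen was 1.31 (1.27 to 1.35). NDUFB11, another membrane arm subunit, was alike in anagen and catagen (59.3 and 57.0 CPM, log2 ratio -0.06, -0.12 to 0.01) and at 116 CPM in telogen. The core subunit NDUFS1 did not share this pattern. NDUFS1, the largest core subunit, stood at 24.5, 24.6 and 20.7 CPM. Its log2 ratio of telogen over anagen was -0.24, and turned sign to 0.01 under median-of-ratios scaling. NDUFV1, which binds NADH, stood at 18.3, 20.2 and 21.5 CPM, with log2 ratios of 0.14 for catagen over anagen, which turned to -0.12 under median-of-ratios scaling, and 0.09 for telogen over catagen, which became 0.59.

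Complex II, also called succinate dehydrogenase, links the citric acid cycle to the chain. SDHB, its iron-sulphur subunit, stood at 105 CPM in anagen, 87.8 in catagen and 118 in telogen. SDHC, one of its membrane anchors, stood at 161, 116 and 182 CPM. Both kept the order of the sums, and 1 ratio passed 1.5-fold, SDHC in telogen over catagen (log2 0.65, 0.61 to 0.69).

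In complex III, UQCRFS1, the Rieske iron-sulphur protein, stood at 140 CPM in anagen, 78.8 in catagen and 165 in telogen, a log2 ratio of -0.83 (-0.88 to -0.78) for catagen over anagen. UQCR10, a small subunit, was near 20 CPM or below, at 13.1, 11.6 and 29.3 CPM, and had the highest log2 ratio of the 36 members compared in telogen over anagen, 1.16 (1.05 to 1.26), and in telogen over catagen, 1.34 (1.21 to 1.46). It reached 20 CPM in telogen alone, so it could enter these comparisons only by being higher there. UQCRC2, a core protein of the complex, stood at 104, 92.7 and 92.0 CPM, and its telogen over catagen ratio of -0.01 (-0.06 to 0.04) was within counting error of 0 and became 0.49 under median-of-ratios scaling. The other complex III members had log2 ratios of telogen over catagen of 1.07 (UQCRFS1) and 0.67 (UQCRC1). UQCR10 and UQCRC2 were named as extremes of this ratio among all members, so the gap between them does not describe the complex.

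The complex IV genes with a row here were mostly assembly factors at low levels. COX17, a copper chaperone for the enzyme, stood at 12.2 CPM in anagen, 10.4 in catagen and 22.3 in telogen. COX16, an assembly factor, stood at 12.9, 15.2 and 22.6 CPM, and the subunit COX8A at 22.1, 19.5 and 40.3 CPM. These 3 genes were the complex IV members that reached 20 CPM, and each was at least 1.5-fold higher in telogen than in anagen, with log2 ratios of 0.81 to 0.87. COX16 and COX17 reached 20 CPM in telogen alone, so they could be compared only by being higher there. COX8A reached it in anagen as well. Complex IV members below 20 CPM in every library went both ways in telogen over anagen, such as COX18 at -0.37 and COX20 at 1.52.

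The tissue-restricted isoforms of complex IV were at low levels. COX7A1, known as the heart and skeletal muscle isoform, stood at 5.97 CPM in anagen, 3.76 in catagen and 5.42 in telogen. COX6A2, also a muscle isoform, had 3, 1 and 1 UMIs in whole libraries, and COX7B2, known from testis, had 19, 5 and 2. COX7A2L, which takes part in joining complexes into supercomplexes and is not tissue-restricted, stood at 4.73, 7.51 and 10.2 CPM. NDUFA4L2, a hypoxia-inducible relative of NDUFA4 counted with complex I by its symbol, had 15, 63 and 160 UMIs, which is 0.181, 1.22 and 1.55 CPM. The broadly expressed counterparts COX6A1, COX7A2 and COX7B were not analysed here.

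In complex V, 2 of 7 members, the alpha and beta subunits of the catalytic head, were lower in telogen than in anagen by library totals. ATP5F1B, the beta subunit of the catalytic head, stood at 574 CPM in anagen, 455 in catagen and 460 in telogen. ATP5F1A, the alpha subunit, stood at 431, 395 and 357 CPM. Their log2 ratios of telogen over anagen were -0.32 and -0.27, and under median-of-ratios scaling -0.07 and -0.03. Within the cell classes described below, ATP5F1B was lower in telogen than in anagen in 8 of 8 classes and ATP5F1A in 7 of 8 by library totals, and in 5 and 4 of 8 under median-of-ratios scaling.

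ATP5MC3, one of the genes for the proton-carrying c subunit, stood at 283 CPM in anagen, 220 in catagen and 424 in telogen. Related genes encode the same mature c subunit, and reads shared with such copies could not be told apart here. ATP5IF1, the inhibitor that binds the enzyme when the membrane potential falls, stood at 204, 170 and 327 CPM. For these members telogen was well above both other libraries, with log2 ratios over catagen of 0.95 each. ATP5PD, of the peripheral stalk, varied little by library totals, at 229, 234 and 270.5 CPM, and its log2 ratio of telogen over catagen was 0.21, or 0.71 under median-of-ratios scaling.

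ATP5PB, the other peripheral stalk subunit with a row here, was the 1 member at least 1.5-fold higher in catagen than in anagen. It stood at 18.9 CPM in anagen, 37.9 in catagen and 29.5 in telogen, a log2 ratio of 1.01 (0.91 to 1.10) for catagen over anagen, or 0.75 under median-of-ratios scaling. ATP5PB was under 20 CPM in anagen, so it could enter this comparison only by being higher in catagen. The same limit holds for its call in telogen over anagen (log2 0.65). Within the cell classes described below it was higher in catagen in 9 of 10, by at least 1.5-fold in 8 (7 under median-of-ratios scaling), and lower by at least 1.5-fold in the mesenchymal-like class, on 12 UMIs in anagen and 2 in catagen.

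The order of the stages was also looked at in 4 bins of UMIs per cell, since the libraries differed in depth. In cells of 500 to 2500 UMIs the summed level was 5212 CPM in anagen, 3599 in catagen and 5747 in telogen, the anagen value resting on 379 cells. No anagen cell held fewer than 2404 UMIs, while the other libraries reached down to 500, so depth was not matched in this bin. In cells of 10000 UMIs or more it was 5889, 4607 and 7120 CPM. Telogen was above anagen and anagen above catagen in each of the 4 bins. The log2 ratios were 0.14 to 0.33 for telogen over anagen and -0.53 to -0.21 for catagen over anagen. The unmatched lowest bin gave the 0.14 and the -0.53. The median cell gave 0.501% of its UMIs to these genes in anagen, 0.376% in catagen and 0.612% in telogen. After thinning of every cell to 1500 UMIs, with 0, 2263 and 2932 shallower cells dropped, the mean was 7.71, 6.02 and 9.39 UMIs of these genes per cell.

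**Figure D3:**
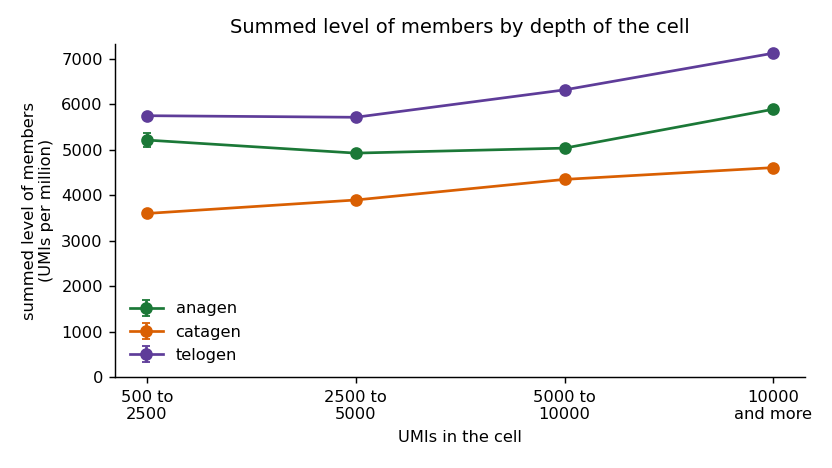
Summed level of the respiratory chain genes (vertical axis, CPM, from 0) in cells binned by their UMIs (horizontal axis) for the 3 libraries (lines), with exact 95% counting intervals. The telogen line lies above the anagen line and the catagen line below it in all 4 bins.

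Cells were then grouped by clustering, with the respiratory chain genes and the comparison lists kept out of the clustering, and clusters were named from marker genes. The classes were rebuilt for this work, so they need not match the cell types of the study. They were interfollicular epidermis differentiated (IFE-DC-like), basal epidermal-like, hair shaft-like (HS-like), mitotic-like, S phase-like and inner root sheath (IRS-like) classes. The others were hair cortex-like, keratinocyte-like (from KLK and SPINK genes), dermal sheath (DS-like) and mesenchymal-like. HS is the name the study gave to cells with LHX2 and IGFBP5. The HS-like markers used here (LHX2, IGFBP5, SPARC, POSTN, PTHLH, WIF1 and NGFR) held no keratin, while KRT85 and KRT35 were markers of the hair cortex-like class. The name therefore does not place HS-like cells in the hair shaft. Classes of at least 50 cells in a library were used, 10 in anagen and catagen and 8 in telogen. Named clusters held 73.2% of the anagen, 80.8% of the catagen and 35.6% of the telogen cells. The telogen share includes an immune-like cluster of 49 cells and an endothelial-like cluster of 45 cells, which were too small to be used. The mesenchymal-like cluster also had all 6 endothelial markers and 3 of 4 immune markers raised, so its cells may be mixed. The S phase-like cluster of anagen and catagen was led by DCN as well as by replication genes. S phase markers were also raised in other classes, 6 of 7 in the DS-like cluster and 6 of 7, with all 6 mitotic markers, in the IRS-like cluster of telogen, while the IRS-like cluster of anagen and catagen had fewer than 3 of either list raised. Their part in the class levels was not tested. Telogen was clustered alone, and its basal epidermal-like class was 1 cluster, against 4 in anagen and catagen.

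Among these classes, the respiratory chain genes had their highest value in hair cortex-like cells in every library. In telogen this rank was not clear of counting error. The intervals there were 8125 to 8357 CPM in hair cortex-like, 8091 to 8234 in IRS-like and 8032 to 8150 in mitotic-like cells. Hair cortex-like cells, which build the keratin fibre, had 7028 CPM in anagen (469 cells), 6389 in catagen (223 cells) and 8240 in telogen (168 cells). Mitotic-like cells were close behind, with 6777, 6174 and 8091 CPM. They pooled clusters from 5825 to 7400 CPM in anagen and from 4856 to 6715 CPM in catagen, so some lay above the hair cortex-like level. S phase-like cells had 6756, 5729 and 7453 CPM and IRS-like cells 6570, 4949 and 8162 CPM. All of these classes lay above the rest of their library in each of the 3 libraries, with log2 ratios over the other cells of 0.32 to 0.63 for hair cortex-like and 0.31 to 0.62 for mitotic-like cells. The library labelled telogen thus held 168 hair cortex-like, 389 IRS-like and 561 mitotic-like cells. In whole libraries the hair cortex-like marker KRT85 stood at 949 CPM in anagen, 440 in catagen and 291 in telogen. The IRS-like marker KRT71 stood at 634, 674 and 350 CPM. How far the follicles of the telogen library were at rest was not tested, so its values belong to the label.

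The lower end was held by the epidermal-like, HS-like and mesenchymal-like classes. Basal epidermal-like cells had 4586 CPM in anagen, 3726 in catagen and 5755 in telogen. HS-like cells had 4526, 3621 and 5962 CPM, and IFE-DC-like cells 5008, 3782 and 6209 CPM. As whole classes, all were below the rest of their library in each case. HS-like cells pooled clusters of 4147 and 5594 CPM in anagen and of 3257 and 4512 CPM in catagen. The higher of these lay above the whole-library levels of 5365 and 4177 CPM. Mesenchymal-like cells were lowest in both libraries that held them, with 4075 CPM in anagen (108 cells) and 2811 in catagen (52 cells, 362 UMIs of these genes). Keratinocyte-like cells had 5830, 4839 and 6270 CPM, above the rest in anagen and catagen and slightly below it in telogen (log2 -0.09, -0.12 to -0.06). DS-like cells had 5313 CPM in anagen, within counting error of the rest (log2 -0.01, -0.06 to 0.03), and 5065 CPM in catagen. From the lowest to the highest class the log2 ratio was 0.79 in anagen, 1.18 in catagen and 0.52 in telogen. The lowest class was mesenchymal-like in anagen and catagen. It was basal epidermal-like in telogen, which had no mesenchymal-like class, so these spans are not between the same classes.

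**Figure D4:**
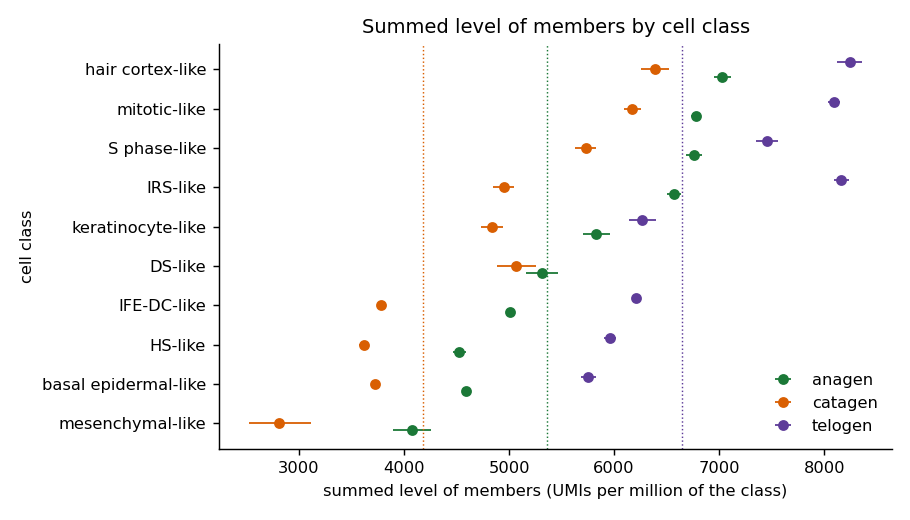
Summed level of the respiratory chain genes in each cell class (horizontal axis, CPM of the class) for the 3 libraries (points), with exact 95% counting intervals and dotted lines at the whole-library levels. Hair cortex-like cells have the highest value in each library, in telogen with an interval that overlaps those of IRS-like and mitotic-like cells. In each class telogen, where present, lies above anagen and anagen above catagen.

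The cytosolic ribosomal genes varied in part with these classes. In anagen their share ran from 10.3% of UMIs in mesenchymal-like to 18.8% in IRS-like cells, and in telogen from 13.2% in keratinocyte-like to 20.7% in hair cortex-like cells. In mitotic-like cells of telogen the log2 ratio of that share over the rest was 0.01, while the respiratory chain genes stood at 0.31 above it. In hair cortex-like cells of telogen the ratios were close, at 0.31 for the ribosomal share and 0.32 for the respiratory chain genes. In anagen the ribosomal ratio was the larger in IRS-like (0.41 against 0.31) and S phase-like cells (0.40 against 0.35). It was the smaller in mitotic-like cells of anagen (0.15 against 0.40). Median UMIs per cell were 6894, 5352 and 10985 in hair cortex-like and 4754.5, 3081.5 and 5675 in basal epidermal-like cells. The part of RNA content in the class levels was not tested.

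Summed over its cells, every class kept the order of the stages. Catagen was below anagen in 10 of 10 classes, with log2 ratios from -0.54 in mesenchymal-like to -0.07 in DS-like cells (median -0.28). Telogen was above anagen in 8 of 8 classes, from 0.11 in keratinocyte-like to 0.40 in HS-like cells (median 0.28), and above catagen in 8 of 8, from 0.37 in hair cortex-like to 0.72 in IRS-like and HS-like cells (median 0.51). Hair cortex-like and mitotic-like cells differed little between catagen and anagen, at -0.14 and -0.13, while IFE-DC-like and IRS-like cells stood at -0.41 each. Single clusters of anagen and catagen did not all follow this order. A basal epidermal-like cluster stood at 3159 CPM in anagen (62 cells) and 3844 CPM in catagen (1026 cells). A mitotic-like cluster stood at 6746 CPM (835 cells) and 6715 CPM (122 cells), with overlapping intervals. Clusters entered some classes in other proportions in anagen and catagen, and different clusters make up some classes in telogen. The class values therefore compare classes and not identical sets of cells. Cells of unnamed clusters were 64.4% of the telogen library. They and the small immune-like and endothelial-like clusters enter no class here, only the whole-library values and the other cells that classes were set against.

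Complexes did not spread over classes in one way. Complex V had a log2 ratio over the other cells of 0.57 in anagen, 0.80 in catagen and 0.40 in telogen in mitotic-like cells, and complex I 0.31, 0.50 and 0.26. In IFE-DC-like cells complex II was above the rest in each library (0.13, 0.07 and 0.20, the catagen interval reaching below 0), while complex V was below it (-0.21, -0.16 and -0.17). In hair cortex-like cells complex I stood at 0.43, 0.70 and 0.33 above the rest.

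**Figure D5:**
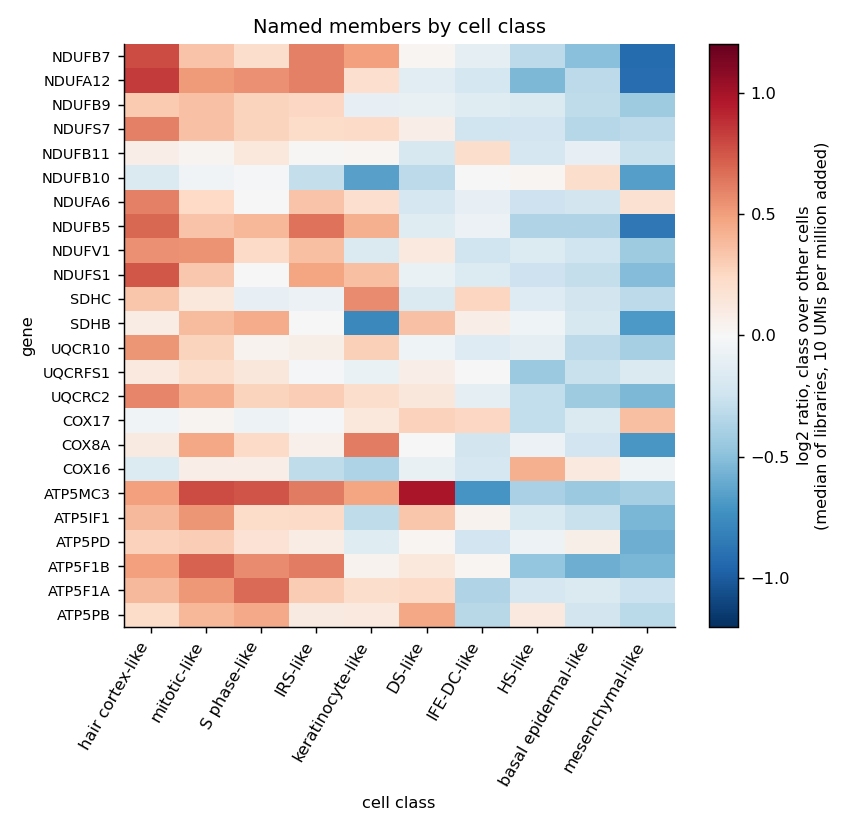
Log2 ratio of each named gene in a class over all other cells of the library (colour, median of the libraries, with 10 CPM added on both sides), for the classes (columns) and 24 named genes that reached 20 CPM in a library (rows). Most rows are above 0 in hair cortex-like and mitotic-like cells and below 0 in basal epidermal-like and mesenchymal-like cells, while NDUFB10, COX16 and COX17 are at or below 0 in hair cortex-like cells.

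ATP5MC3 differed widely between classes. It stood at 449 CPM in anagen, 483 in catagen and 619 in telogen in mitotic-like cells and at 467, 447 and 651 CPM in S phase-like cells, and was at least 1.5-fold above the rest in every library in both of these classes. The same held in DS-like cells, which carried raised S phase markers as well, at 469 CPM in anagen and 523 in catagen. In IFE-DC-like cells it stood at 182, 121 and 301 CPM, a log2 ratio over the rest of -0.74, -0.97 and -0.57. ATP5F1B was likewise high in mitotic-like cells, at 868, 871 and 603 CPM, and low in basal epidermal-like cells, at 405, 324 and 336 CPM.

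In hair cortex-like cells 8 of 33 members in anagen, 21 of 35 in catagen and 7 of 39 in telogen were at least 1.5-fold above the other cells with 10 CPM added on both sides, against 16.9%, 26.7% and 17.8% of all genes compared. The telogen count was thus near the share of all genes. None was 1.5-fold below, against 17.5%, 16.8% and 18.8% of all genes. NDUFB5 stood at 119 CPM in anagen, 131 in catagen and 165 in telogen there, NDUFA6 at 176, 178 and 255 CPM and NDUFB1, another accessory subunit that was named after its values had been seen, at 314, 323 and 459 CPM, and these 3 accessory subunits of complex I were at least 1.5-fold above the rest in each library. So was the core subunit NDUFS1 where no CPM was added, at 37.9, 47.0 and 42.2 CPM. NDUFB7 and NDUFA12 were also high in this class, with NDUFB7 at 328, 236 and 413 CPM. By library totals none of NDUFB5, NDUFA6 and NDUFB1 was lower in catagen than in anagen in this class, while under median-of-ratios scaling all 3 were.

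NDUFB10, the most abundant complex I member, had another pattern. Basal epidermal-like cells, near the bottom for the sum, had 657 CPM of it in anagen, 581 in catagen and 925 in telogen. Keratinocyte-like cells had 455, 278 and 535 CPM and IRS-like cells 530, 277 and 696 CPM. The log2 ratio over the rest was 0.21, 0.54 and 0.14 in basal epidermal-like cells and -0.36, -0.71 and -0.66 in keratinocyte-like cells.

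The subunits of complex II parted in keratinocyte-like cells. SDHB stood at 61.9 CPM in anagen, 48.0 in catagen and 53.0 in telogen there, on 87, 80 and 76 UMIs, and was at least 1.5-fold below the rest of the library each time. SDHC stood at 174, 174 and 319 CPM in the same cells, with log2 ratios over the rest of 0.12, 0.61 and 0.82. In S phase-like cells SDHB was above the rest (0.48, 0.67 and 0.43) and SDHC slightly below it (-0.17, -0.06 and -0.11). The ratio over the rest thus differed in sign between these subunits in both classes. The smaller SDHC ratios lie near 0 and are given without intervals, so their sign may be within counting error.

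Low members had patterns of their own. COX16 was highest in HS-like cells of anagen and, of the classes with at least 20 UMIs of it, of catagen, at 20.6 and 22.3 CPM, and in telogen HS-like cells had 23.0 CPM, close to the rest (log2 0.03). COX8A was high in keratinocyte-like cells, at 39.9 CPM in anagen, 32.4 in catagen and 66.2 in telogen. COX7A1 stood at 10.6, 5.35 and 12.2 CPM in HS-like cells and at 1.02, 0 and 1.48 CPM in IFE-DC-like cells. In basal epidermal-like cells it was at 10.9 and 6.27 CPM in anagen and catagen, on 163 and 90 UMIs, and at 1.82 CPM in telogen, on 8 UMIs.

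Other genes of mitochondrial metabolism, from lists fixed by name, are given for comparison. For the 59 mitochondrial ribosomal protein genes with a row, the summed log2 ratio was -0.39 for catagen over anagen. It was 0.34 for telogen over anagen and 0.73 for telogen over catagen. In that order 14 of 41 were lower, 7 of 41 higher and 23 of 41 higher by at least 1.5-fold. The shares of all genes were 13.7%, 8.79% and 15.6%. Under median-of-ratios scaling the counts were 23 of 40, 21 of 42 and 38 of 42, against 28.8%, 19.3% and 38.5% of all genes. The 15 genes of the citric acid cycle stood at 769 CPM in anagen, 589 in catagen and 748 in telogen. In telogen over anagen and telogen over catagen 0 of 6 and 0 of 7 reached 1.5-fold. Under median-of-ratios scaling 0 of 7 and 6 of 7 were higher. Their summed log2 ratio of telogen over anagen turned from -0.04 by library totals to 0.21 under that scaling. The 21 genes of mitochondrial protein import had log2 ratios of -0.18, 0.19 and 0.36, the 16 electron carriers and transporters -0.35, 0.08 and 0.43, and the 23 assembly factors with other symbols -0.35, 0.11 and 0.47. The 12 regulators of mitochondrial biogenesis, such as NRF1 and TFAM, summed to 267, 286 and 207 CPM. Their log2 ratio of telogen over catagen turned from -0.46 by library totals to 0.04 under median-of-ratios scaling. That of catagen over anagen turned from 0.10 to -0.16. The 13 genes of glycolysis had summed log2 ratios of 0.12, 0.49 and 0.37, and the 12 hypoxia response genes 0.04, -0.64 and -0.67, of which the catagen over anagen values turned to -0.14 and -0.21 under median-of-ratios scaling. In telogen over catagen 1 of 3 of the regulators was at least 1.5-fold lower and 0 higher, and under median-of-ratios scaling 0 were lower and 1 higher.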

How the data were processed

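Single-cell RNA was sequenced from scapular skin of Tianzhu white yaks by 10x 3' profiling, with 1 library each of anagen, catagen and telogen. The deposited values are raw UMI counts per gene and cell, made by the authors with Cell Ranger, and the smallest cells held 2404, 500 and 500 UMIs. The submitters' processing notes name Cell Ranger 2.1.1, while the file headers name 4.0.0, 3.1.0 and 6.0.2. The genome build is not given in the sources used here. Counts were not divided by gene length, so levels of different genes also depend on capture at the 3' end.

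A cell entered if it had 200 or more detected genes, so 13, 62 and 71 cells were dropped. Member UMIs were summed per library or cell class, divided by the total, and compared as log2 ratios with exact (Clopper-Pearson) 95% intervals, which cover counting error only. With 1 library per stage no test was made. A gene was compared where it reached 20 CPM in either group and called at 1.5-fold. Cells were clustered with Seurat 5.3.0 in R 4.3.3 (2000 variable genes, 30 principal components, resolution 0.8), anagen and catagen integrated by anchors and telogen alone, with 262 member and comparison genes kept out. A cluster was named from at least 3 raised markers of a list with at least 1 among its 10 leading genes of 50 CPM or more. Doublets were left in, since Scrublet (scanpy 1.11.5) called 0 cells in each library, which means that it had not worked, and leaving out the highest 5% of its scores was an alternative. Other steps used Python 3.11.15, numpy 2.4.6, pandas 2.3.3, scipy 1.17.1 and matplotlib 3.10.9. The interval and call steps were tested on simulated data.

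The members, lists, markers and rules were chosen with earlier results of these data known. Named genes were the 4 highest and 4 lowest members of each stage comparison, the 5 most abundant of each library, the leading member of each class, the SDH genes and the members of isoform families. The split of complex I into core and accessory subunits was made after values were seen. Alternatives covered cell filters, thinning to 1500 UMIs, scaling, doublets, summation, members, call limits and clustering. Leaving out unnamed telogen clusters of low UMI count was added after seeing the data. Values of 1 member are not reported here on their own, although it enters the sums and counts.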

Additional observations from a re-analysis of the deposited data

How the results depend on the processing

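Each stage ratio of the summed level kept its sign under every alternative run. For catagen over anagen, telogen over anagen and telogen over catagen in turn, the log2 ratio was -0.34, 0.30 and 0.63 with at least 1000 genes per cell, -0.34, 0.32 and 0.65 with cells of at least 2404 UMIs, -0.61, 0.56 and 1.17 under median-of-ratios scaling, -0.39, 0.35 and 0.74 with ribosomal protein genes out of the totals, -0.39, 0.27 and 0.66 as a mean of per-cell CPM and -0.37, 0.29 and 0.66 for subunits only. Thinning to 1500 UMIs gave 0.28 and 0.64 for the telogen ratios, leaving out the highest 5% of Scrublet scores gave -0.37 for catagen over anagen, and leaving out the low-UMI telogen clusters, chosen after seeing the data, gave 0.32 and 0.68. Counts of members past the fold moved more. Median-of-ratios scaling gave 18 of 32 lower in catagen over anagen and 22 of 37 higher in telogen over anagen, with the shares of all genes given above. With no filter on low values 4 of 53 were higher and 13 of 53 lower in catagen over anagen. In telogen over anagen 2 of 53 were then lower, and in telogen over catagen 3 of 53. At 50 CPM or more 0 of 26 were higher in catagen over anagen and 4 of 29 in telogen over anagen. At 2-fold 0 of 33 were lower in catagen over anagen. In telogen over anagen 1 of 36 was then higher, and in telogen over catagen 12 of 36. The shares of all genes at these other limits are not given here, so these counts stand without a background. Highest over lowest class was 0.71, 1.001 and 0.46 in anagen, catagen and telogen with 15 principal components, 0.92 in anagen and 0.59 in telogen with ribosomal genes out of the totals, and in telogen 0.47 at resolution 1.2 and 0.48 when thinned. The median ratio within classes was -0.24 when thinned and -0.54 under median-of-ratios for catagen over anagen, 0.31 at resolution 0.4, 0.31 with each library clustered alone and 0.53 under median-of-ratios for telogen over anagen, and 0.66 at resolution 0.4, 0.56 at resolution 1.2, 0.62 alone, 0.47 thinned and 1.01 under median-of-ratios for telogen over catagen. Of 858 values of single genes and classes under alternatives, 833 kept their sign. In size, 326 were counted as moved from the main value and 532 as the same. These values are reruns on the same cells and so are not independent of each other. No value was had for the catagen classes with each library alone or thinned, nor for the telogen classes at resolution 0.4. The cause of these shifts was not tested. No paired analysis was possible because each stage had 1 library. The lowest members rest on few UMIs in a whole library, as do members below 20 CPM in small classes. Differences between animals could not be measured.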

Other observations

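Some clusters that could not be named held the extremes of the respiratory chain level. A cluster led by ELOVL3, a fatty acid elongase, had 9084 CPM in 161 anagen cells and 9904 CPM in 4 catagen cells, the highest of any cluster in either library. The highest telogen cluster had 11256 CPM in 43 cells, with 3 sebocyte markers raised and none among its leading genes. At the other end, 1 cluster had 911 CPM in 345 anagen cells, with 1.95% of its UMIs from cytosolic ribosomal genes, and 1639 CPM in 121 catagen cells, with 4.78%. In telogen the largest cluster, with 2515 cells and a median of 992 UMIs, stood at 6537 CPM, and a cluster of 632 cells stood at 3086 CPM, with 6.41% from cytosolic ribosomal genes.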
